A study of Rattus norvegicus with 9 samples.

Results

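miR-191a-5p (rno-miR-191a-5p in the deposited table) was the most abundant miRNA in the serum of these rats, and it is described here as 1 of the 276 mature miRNAs counted. It was chosen by its read counts, as the miRNA with the highest mean share of the miRNA reads per library, 19.5% ± 11.5 (SD, n = 9), so that this share is a description and not a finding. The next in that order was let-7b-5p, with 6.38%. Serum small RNA was sequenced from 9 male wild-type Sprague-Dawley rats, 1 library per rat, 4 weeks after surgery. In the PAB group (n = 6) the pulmonary artery was narrowed by a plastic ring of fixed size, which loads the right ventricle, and the sham group (n = 3) had a sham operation. All rats, sham rats included, had surgery, and serum collects miRNAs from blood cells, vessels and organs, so that fewer releasing cells and less release per cell cannot be told apart.

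miRNAs are short RNAs that guide Argonaute proteins to messenger RNAs, mainly through the seed, the bases 2 to 8 of the mature strand. A precursor hairpin can give a mature miRNA from each side, named the 5p and the 3p arm. miR-191 is made in most tissues, is plentiful in platelets and in other blood cells of humans, and is often used as a reference miRNA in RT-qPCR of human serum and plasma. Its gene lies beside that of miR-425, and in human both sit in an intron of DALRD3, a gene that acts in tRNA modification.

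In the rat reference (RefSeq, build GRCr8) the hairpin Mir191 lies at chr8:118142627-118142717 on the plus strand, and Mir425 follows 366 bases later on the same strand, at chr8:118143084-118143166. Both hairpins overlap Dalrd3, and their place among its exons and introns was not analysed here. The hairpin is shown because both of its arms were counted, and the capitals mark the 5p and then the 3p arm.
Mir191 hairpin: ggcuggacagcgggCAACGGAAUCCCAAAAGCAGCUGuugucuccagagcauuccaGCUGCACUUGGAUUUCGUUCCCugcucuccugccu
The mature strands that the results turn on follow, with the seed in capitals: both arms of miR-191a, both arms of miR-425, and the let-7 miRNAs that exceeded miR-191a-5p in a library.
miR-191a-5p: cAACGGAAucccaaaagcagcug
miR-191a-3p: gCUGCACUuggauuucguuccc
miR-425-5p: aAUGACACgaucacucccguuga
miR-425-3p: aUCGGGAAuaucguguccgcc
let-7b-5p: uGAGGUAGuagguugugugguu
let-7c-5p: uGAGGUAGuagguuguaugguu
Of the 693 mature rat miRNAs of the reference, miR-191a-5p was the 1 with the seed AACGGAA. Its closest other sequence among the counted miRNAs that could be matched to the reference (196 of 218 with a miRBase name) was 10 edits away. let-7b-5p and let-7c-5p share the seed GAGGUAG and differ by 1 base, so their reads may be split between them.

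miR-191a-5p had 16225, 11249 and 25104 reads in sham libraries 1 to 3 and 2170, 17101, 2163, 9039, 10492 and 2352 reads in PAB libraries 1 to 6. The low values were in PAB libraries 1, 3 and 6, which also had the fewest miRNA reads (19477, 26519 and 29833, against 49909 to 65313 in the other 6 libraries). It was the miRNA with the highest minimum, since miR-23a-3p, a miRNA of many cell types and the next in that order, went down to 577 reads. Of the 87 tested miRNAs with at least 100 reads in a library, 67 had at most 3 reads in another library, and 48 had 0.

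As a share of the miRNA reads, miR-191a-5p took 24.8%, 17.3% and 44.6% in sham libraries 1 to 3 and 11.1%, 26.5%, 8.16%, 18.1%, 17.3% and 7.88% in PAB libraries 1 to 6. Sham library 3 stood highest, with a Wilson 95% interval of 44.2% to 45.1%, and PAB library 6 lowest, with 7.58% to 8.20%. Counting error was thus small beside the spread between libraries, in which rat and library preparation cannot be told apart. Its binomial SD was 0.148 to 0.226 percentage points per library, against an SD of 11.5 points between libraries. The coefficient of variation of the share was 58.8%, the fourth lowest of the 162 tested miRNAs, after miR-23a-3p (50.03%), let-7f-5p (54.1%) and miR-92a-3p (56.2%). The highest and the lowest share still differed 5.66-fold. No molecular identifiers are named in the sources used here, so intervals and limits cover counting error only.

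**Figure D1:**
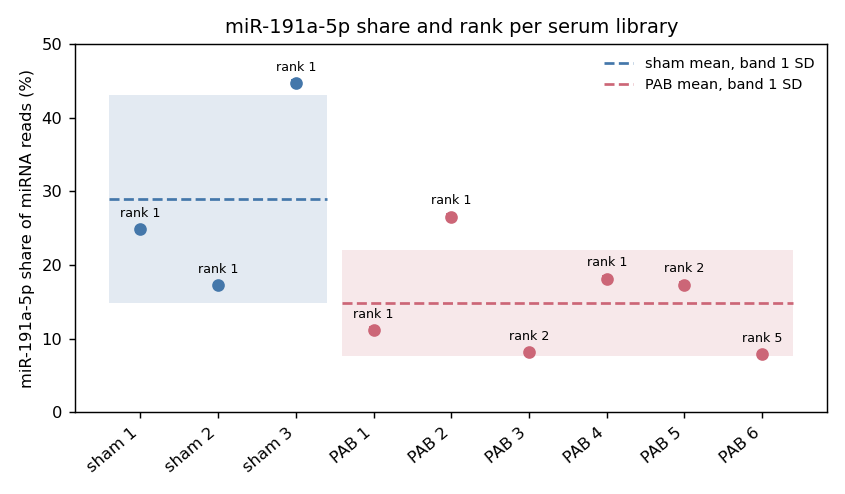
Share of miR-191a-5p in the miRNA reads (y axis, percent) in each serum library (x axis), with Wilson 95% intervals, most of them hidden by the points, and the rank of its read count among all miRNAs; the dashed lines and bands are the group mean and 1 SD. The shares run from 7.88% in PAB 6 to 44.6% in sham 3, and it ranked first in 6 of 9 libraries.

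miR-191a-5p ranked first in all 3 sham libraries and in PAB libraries 1, 2 and 4, rank 2 in PAB libraries 3 and 5, and rank 5 in PAB library 6. Its lead was widest in sham library 3, with 8.32 times the reads of miR-150-5p, a lymphocyte miRNA, and in PAB library 2, with 4.86 times those of miR-24-3p. In sham libraries 1 and 2 it had 1.73 and 2.49 times the reads of miR-24-3p, which is widely expressed. The lead was 1.77-fold over let-7d-3p in PAB library 4 and 1.27-fold over miR-23a-3p in PAB library 1.
The miRNAs above it were members of the let-7 family, which represses growth genes, and in PAB library 6 also 2 others. In PAB library 3, let-7c-5p had 3533 reads against 2163, and miR-191a-5p made up 38.0% of the reads of this pair (exact 95% interval 36.7% to 39.2%). In PAB library 6, let-7c-5p (3140 reads), miR-150-5p (2714), the red blood cell miRNA miR-16-5p (2440) and let-7b-5p (2430) were all above its 2352 reads. In PAB library 5, let-7b-5p had 10542 reads against 10492, a difference of 50 reads, and the exact interval of the pair (49.2% to 50.6%) includes equal numbers. Its second place there was not resolved at this depth.

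The 3p arm of the same precursor did not keep a fixed proportion to the 5p arm. miR-191a-3p had 945, 504 and 783 reads in sham libraries 1 to 3, which was 5.50%, 4.29% and 3.02% of the reads of both arms. In the PAB group it had 447, 2029 and 673 reads in libraries 1, 2 and 4, or 17.1%, 10.6% and 6.93% of both arms. In PAB libraries 3, 5 and 6 it had 0, 4 and 3 reads. PAB library 5 thus held 10492 reads of the 5p arm and 4 of the 3p arm, a share of 0.0381% (Wilson 95% interval 0.0148% to 0.0980%), while PAB library 1 held 2170 and 447, a share of 17.1% (15.7% to 18.6%). In PAB library 3, 0 of 2163 reads allows a 3p share of up to 0.139%. The 3p share averaged 4.27% ± 1.24 (SD, n = 3) in sham rats and 5.80% ± 7.08 (SD, n = 6) in PAB rats, with 3 PAB libraries above the highest and 3 below the lowest sham value (p = 0.774 by exact permutation of the groups, two-sided, 84 splits). The log2FC of miR-191a-3p, PAB against sham, was 0.37 (standard error 1.99, edgeR adjusted p = 0.981).

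**Figure D2:**
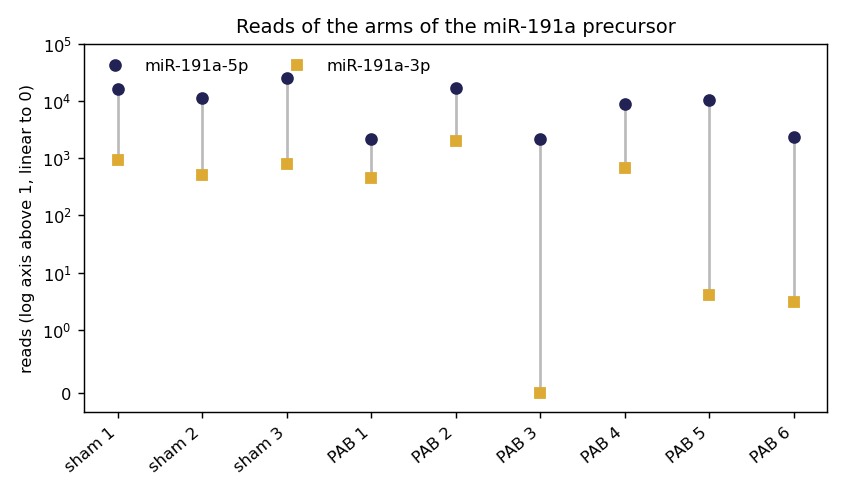
Reads of miR-191a-5p (circles) and miR-191a-3p (squares) in each library (x axis); the y axis is logarithmic above 1 read and linear below, so that 0 can be drawn. The 5p arm stays at 2163 reads or more in every library, while the 3p arm drops to 0, 4 and 3 reads in PAB 3, PAB 5 and PAB 6.

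The neighbouring miR-425 was scarce. miR-425-3p had 384 reads in sham library 3 and 266 in PAB library 2, the libraries with the highest miR-191a-5p shares, and 0 reads in the other 7. miR-425-5p had 0 to 5 reads in every library (log2FC −0.35, standard error 1.18, edgeR adjusted p = 0.946). miR-191b, annotated on the opposite strand of the Mir191 hairpin, was not among the miRNAs counted.

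Whether PAB changed the serum level of miR-191a-5p was asked on 3 scales. Its mean was lower in PAB on each, it was not called in the test across miRNAs, and of the exact tests on its own values only that on linear RPM went below 0.05. On the first scale, after TMM normalization of the counts, its log2FC was −0.79 (standard error 0.63, edgeR adjusted p = 0.56). The log2 CPM of the groups overlapped, from 16.3 to 19.5 in sham rats and from 16.1 to 18.6 in PAB rats. Of all 162 miRNAs tested, 2 were called (1.23%, at an adjusted p ≤ 0.05 and |log2FC| ≥ 1), both lower in PAB, and the median log2FC of the 162 was −0.15. DESeq2 gave −0.29 for miR-191a-5p (adjusted p = 0.869) and called 13 of the 162 (8.02%), 9 higher (5.56%) and 4 lower (2.47%). Without sham library 3 the log2FC of miR-191a-5p was 0.77 (adjusted p = 0.571 from edgeR), so that its direction rests on that library.
On the second scale, the share of the miRNA reads, the sham group had 28.9% ± 14.1 (SD, n = 3) and the PAB group 14.9% ± 7.22 (SD, n = 6), with 3 of 6 PAB libraries below the lowest sham value and 0 above the highest. The difference of −14.0 percentage points gave p = 0.0952 by exact permutation (smallest possible, 0.0119), and without sham library 3 it was −6.19 points (exact permutation test, p = 0.357).
On the third, RPM, the reads are divided by a library total of the authors in which miRNAs are a small part. miR-191a-5p stood at 1285, 671.9 and 1480 RPM in sham libraries 1 to 3, and in the PAB libraries the lowest was 112.7, the median 365.5 and the highest 1093 RPM. All PAB libraries but PAB library 2 were below the lowest sham library. The means were 1146 ± 422 (SD, n = 3) and 444.5 ± 380.5 RPM (SD, n = 6), with an exact permutation p of 0.0357 on the linear scale and of 0.0595 for log2(RPM + 0.1), where the difference was −1.77. With the totals implied by RPM in edgeR, its log2FC was −1.37 (adjusted p = 0.11), beside a median of −1.54 over all tested miRNAs. Relative to that median miR-191a-5p was therefore 0.17 higher, whereas with TMM it was below the median, at −0.64.

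The RPM of the other miRNAs was lower in the PAB group as well. The summed miRNA RPM was 4128 ± 950 (SD, n = 3) in the sham and 2598 ± 1135 (SD, n = 6) in the PAB group, and without miR-191a-5p it was 2982 ± 1047 and 2153 ± 793 (exact permutation p = 0.107 and 0.214). miR-191a-5p alone made up 45.8% of the difference of the summed means (−701.3 of −1530 RPM). This part was 27.6% without sham library 3 and 62.7% without sham library 1.

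**Figure D3:**
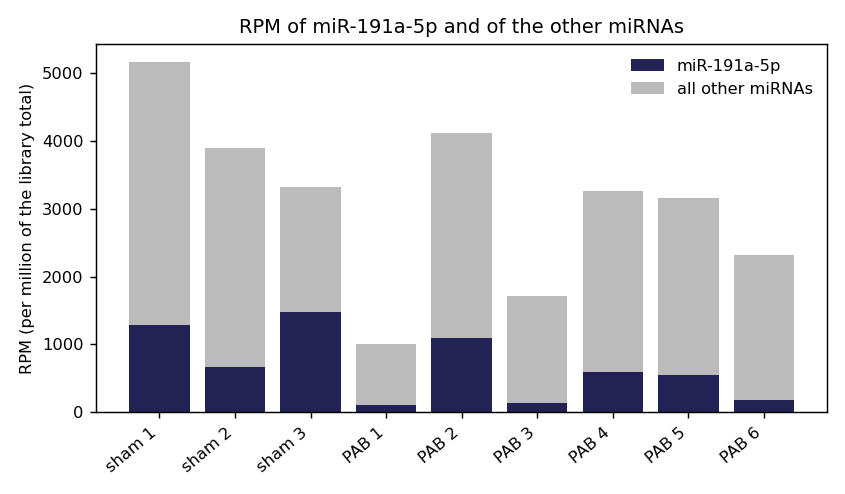
RPM of miR-191a-5p (dark) and of all other miRNAs together (grey), stacked, in each library (x axis); the bars start at 0 on a linear axis. miR-191a-5p is at 671.9 to 1480 RPM in the sham libraries and at 112.7 to 1093 RPM in the PAB libraries, where PAB 1 has the lowest total, 1012 RPM.

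Because shares add up to the whole, the reads of miR-191a-5p set how much is left for the other miRNAs. Leaving its reads out of the total multiplied every other share by 1.81 in sham library 3 but by 1.09 in PAB libraries 3 and 6. The mean factor was 1.45 ± 0.32 (SD, n = 3) in the sham and 1.18 ± 0.105 (SD, n = 6) in the PAB group, a mean log2 shift of 0.51 and 0.24 (exact permutation p = 0.0833 and 0.0952 for the factor and its log2). Without sham library 3 the mean factor of the sham group was 1.27. Of the 151 other tested miRNAs with reads in both groups, the PAB to sham ratio of the mean share fell for 140 and rose for 11 when miR-191a-5p was left out, and it fell for each of the 9 next most abundant. Without sham library 3 it fell for 134 of 149.
The shift was visible in the miRNAs whose mean shares were close between the groups. The liver miRNA miR-122-5p went from 2.25% in the sham and 2.74% in the PAB group to 3.73% and 3.11%. With all 9 libraries it was the 1 miRNA of 161 whose difference changed sign. With 1 library left out, the number that changed sign was 2 (without sham library 3) to 14 (without sham library 2). The sign change of miR-122-5p depends on libraries of both groups. Without sham library 3 the PAB to sham ratio was 2.99 and then 2.65. Without sham library 1 or 2, or without PAB library 3 (0.969 and then 0.675), it was below 1 on both scales. Without PAB library 4 or 5 it was 1.46 and then 0.999. miR-23a-3p went from 4.86% and 4.70% to 7.04% and 5.52%, a ratio of PAB to sham of 0.966 and then 0.783. The ratio was 1.70 and then 1.11 for miR-150-5p, and 1.24 and then 1.02 for let-7d-3p. That of miR-150-5p rests on sham library 3, with a share of 5.37% against 0.023% and 0.42% in the other sham libraries, and without it the ratio was 14.8 and then 14.1. Without PAB library 4, let-7d-3p had 0.904 and then 0.739, and without sham library 1, miR-23a-3p had 1.13 and then 0.862. None of these 4 differences passed an exact permutation test on either scale (p = 0.536 to 0.988).
The 3 let-7 miRNAs among the 10 most abundant that were higher in the PAB group by more than 2 times were let-7b-5p, let-7c-5p and let-7g-5p. let-7b-5p had a PAB to sham ratio of 2.91 with all miRNA reads and 2.68 without miR-191a-5p, let-7c-5p had 2.48 and 2.23, and let-7g-5p had 3.19 and 2.87. The size of these ratios depends on sham library 2, without which they were 8.72 and 6.81, 5.42 and 4.34, and 5.37 and 4.24. Their exact permutation p were 0.167, 0.131 and 0.0714 before, and 0.19, 0.131 and 0.0714 after. miR-486, found in erythrocytes and muscle, had mean shares of 0.0197% and 1.12% before and 0.0261% and 1.29% after (p = 0.321 on both scales). Without PAB library 1 its PAB means were 0.477% and 0.571%.
Over the other 161 tested miRNAs, 31 (19.3%) were lower and 0 higher in PAB at an unadjusted exact p ≤ 0.05 with all miRNA reads in the total, and 41 (25.5%) lower and 0 higher without miR-191a-5p. Adjusted over all 161, none passed on either scale, with the smallest adjusted p at 0.213 and 0.151 (exact permutation tests, Benjamini-Hochberg). With 84 splits the smallest possible exact permutation p is 0.0119. A miRNA could thus pass only if many others were also at or near this value, so that none passing says little. More miRNAs were detected in sham than in PAB libraries, with means of 173 and 103.5 (exact permutation p = 0.0238). With every library brought to 19477 reads, the means were 130.6 and 86.6 (exact permutation p = 0.0595). How far the counts of lower miRNAs follow this difference in detection was not tested.

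**Figure D4:**
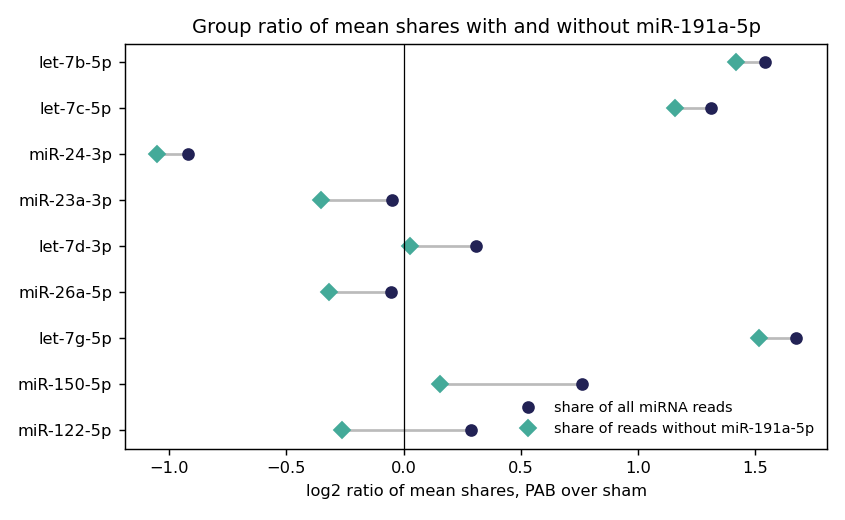
Log2 ratio of the mean share in PAB to that in sham (x axis) for the 9 most abundant miRNAs after miR-191a-5p, as a share of all miRNA reads (circles) and of the reads without miR-191a-5p (diamonds). Every diamond lies to the left of its circle, and miR-122-5p crosses 0.

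miR-191a-5p also entered the TMM factors, which scale the library totals before the test. The factor of sham library 3 was 0.614 with miR-191a-5p and 0.914 without it, and that of PAB library 5 was 0.72 and 0.59. Without miR-191a-5p its reads were also left out of the totals that the factors multiply. The factors with and without it therefore apply to different totals, and their difference is not a change in scaling. With TMM computed without miR-191a-5p, edgeR called 4 miRNAs (2.47%), all lower in PAB, in place of 2 (1.23%). To miR-31a-5p and miR-181a-1-3p it added miR-30e-3p and miR-30a-3p. With miR-191a-5p in the totals, the first 2 had an edgeR adjusted p of 0.0467. The added 2 had 0.0511 there, so they had missed the threshold narrowly. The log2FC of miR-191a-5p itself was then −0.72 (adjusted p = 0.618 from edgeR).

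As a reference miRNA, miR-191a-5p would be the divisor of every other level. With its reads as the library size, edgeR called 0 of the other 161 miRNAs (0%), while 7 were higher and 15 lower at an unadjusted p under 0.05, and the median log2FC was −0.03. DESeq2 and limma-voom were not run with this divisor. The log2 ratio to miR-191a-5p was higher in PAB for let-7b-5p, by 2.93 (exact permutation p = 0.0238), and for let-7g-5p, by 2.74 (p = 0.0357), and it was 4.45 higher for miR-486 (p = 0.131). Over the 161 miRNAs, 4 (2.48%) were higher and 1 (0.621%) lower at an unadjusted exact p ≤ 0.05, and none passed when adjusted over all of them, with the smallest adjusted p at 0.639 (exact permutation tests). Here too the smallest possible exact permutation p is 0.0119, so a single miRNA could not have passed.
The spread of miR-191a-5p over the 9 libraries, an SD of log2 CPM of 1.13, was the sixth lowest among the 41 miRNAs with reads in every library, whose median SD was 2.397, and number 70 from the lowest among all 162 tested, whose median was 1.44. Among 13 miRNAs often used as references, 10 were above 0 in at least 3 libraries and so were tested. The SD of log2 CPM was lower than that of miR-191a-5p for miR-425-5p (0.58), miR-484 (0.71), miR-26a-5p (0.92) and miR-23a-3p (1.04), of which miR-425-5p and miR-484 had at most 5 and 14 reads in any library. It was higher for miR-93-5p (1.42), miR-24-3p (2.45), miR-423-3p (2.77), miR-16-5p (3.83) and let-7a-5p (4.50). The remaining 3, miR-103-3p, miR-423-5p and miR-30e-5p, had 2, 3 and 1 reads in all libraries together. edgeR called 0 of the 10 tested, against 1.23% of all tested miRNAs, with 0 at an unadjusted p under 0.05, and DESeq2 called 0 as well. In edgeR their median log2FC was −0.14, beside −0.15 over all. The smallest p among them was that of miR-484, with a log2FC of −2.27 (adjusted p = 0.341 from edgeR).

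Which miRNAs vary with miR-191a-5p was described over the 40 other miRNAs with at least 1 read in every library, by Pearson's r of log2 CPM after TMM. The points share the library and its scaling, and many of these miRNAs had few reads in some libraries. r was above 0 for 23 and below 0 for 17, with a median of 0.08. An unadjusted exact p under 0.05 was reached by 1 of 40 (2.5%), and 0 passed adjustment (smallest adjusted p = 0.685, exact permutation over all pairings).
The most alike was miR-146a-5p, which restrains innate immune signalling. Its reads were 352, 380 and 1168 in sham libraries 1 to 3 and 416, 1034, 7, 2480, 1181 and 5 in PAB libraries 1 to 6, so that it was nearly absent in PAB libraries 3 and 6, where the share of miR-191a-5p was lowest. Over the 9 libraries r was 0.76 (exact permutation p = 0.0172, adjusted p = 0.685) and Spearman's rho was 0.78 (p = 0.0172, adjusted p = 0.34). Without sham library 3 and PAB library 2, the 2 farthest from the median of miR-191a-5p, r was 0.88, and within the 6 PAB libraries it was 0.83 (exact permutation p = 0.0542).
It was followed by miR-328a-3p (r = 0.58), miR-423-3p (0.53), miR-99b-5p (0.50) and miR-128-3p (0.46). Of these, miR-328a-3p kept r = 0.60 without the 2 farthest libraries, while miR-423-3p, miR-99b-5p and miR-128-3p had −0.24, −0.05 and −0.05, so that their r rests on those 2 libraries. At the other end were miR-30d-5p (r = −0.61), let-7f-5p (−0.54), the predicted miR75-5p (−0.53), miR-3557-5p (−0.47) and miR-16-5p (−0.45). miR-30d-5p had 539 reads in each of PAB libraries 3 and 6 and 1 to 19 in the other 7, the reverse of miR-146a-5p. Its r was −0.88 within the PAB group (exact permutation p = 0.0167, adjusted p = 0.667 over the 40). The 6 PAB libraries allow 720 pairings, too few for a single miRNA of the 40 to pass adjustment. let-7f-5p turned to 0.52 without the 2 farthest libraries.
The scale moved these values. In log2 RPM, where all miRNAs of a library share its miRNA content, r was above 0 for 31 of 40 and the median was 0.41. There 6 of 40 reached an unadjusted exact permutation p under 0.05, and 0 passed adjustment (smallest adjusted p = 0.126). With totals without miR-191a-5p, 5 of 40 reached it, and 0 passed adjustment. let-7c-5p had r = −0.45 in log2 CPM, −0.20 in log2 RPM, and −0.85 where each miRNA was divided by the reads other than miR-191a-5p (adjusted p = 0.143, exact permutation test).

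**Figure D5:**
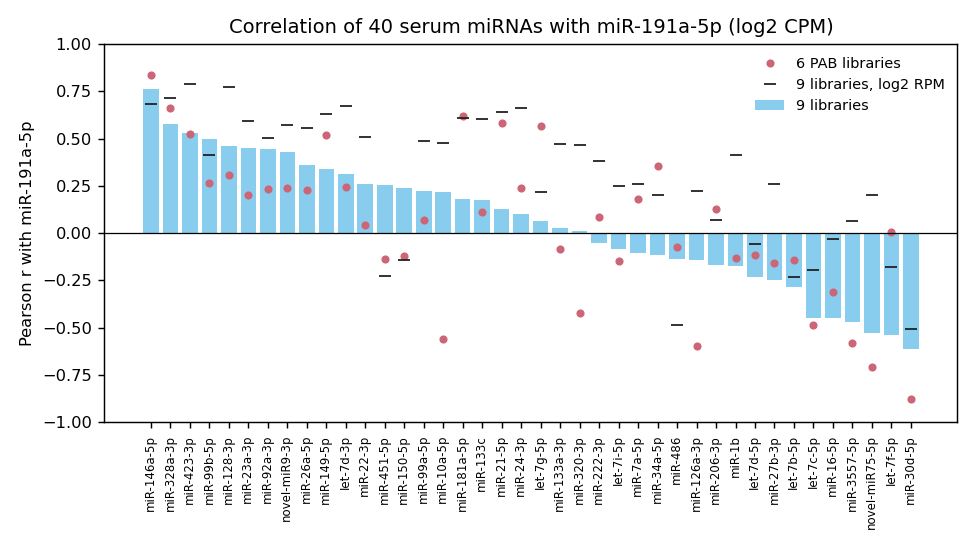
Pearson's r with miR-191a-5p (y axis) for each of the 40 other miRNAs with reads in every library (x axis): bars are log2 CPM over 9 libraries, points are log2 CPM over the 6 PAB libraries, dashes are log2 RPM over 9 libraries. miR-146a-5p is highest (0.76) and miR-30d-5p lowest (−0.61), and most dashes lie above their bars.

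Of 4 measures of the libraries, none was related to the share of miR-191a-5p over all 9 after adjustment. Pearson's r was 0.62 with the total miRNA reads (exact permutation p = 0.0651, adjusted p = 0.259; Spearman's rho 0.58, p = 0.108, adjusted p = 0.216) and 0.55 with the summed miRNA RPM (p = 0.13, adjusted p = 0.259; rho 0.73, p = 0.0311, adjusted p = 0.124). It was −0.06 with the number of miRNAs detected when every library is brought to 19477 reads (p = 0.881, adjusted p = 0.923; rho −0.10, p = 0.81). With miR-451-5p over miR-23a-3p on a log2 scale, a common gauge of haemolysis, it was −0.05 (p = 0.923, adjusted p = 0.923; rho −0.10, p = 0.81). Without the 2 libraries farthest from the median of each measure, r was 0.45, 0.55, −0.14 and 0.04. The haemolysis gauge rests on few reads in some libraries: miR-451-5p had 14 and 31 in sham libraries 1 and 2 and 3 in PAB library 5. Within the 6 PAB libraries, r was 0.88 with the total reads and 0.86 with the summed RPM (exact permutation p = 0.0333 and 0.0319, both 0.0667 when adjusted over the 4), and 0.76 with the RPM of the other miRNAs alone (p = 0.0847). This last relation was added after the data were seen, and over all 9 libraries it had r = 0.24 (exact permutation p = 0.532; rho 0.42, p = 0.27), and −0.0046 without the 2 farthest. The share of miR-191a-5p was highest in PAB library 2, which had the most miRNA reads of its group. The sham group has too few libraries for such a value.

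Marker miRNAs of blood cells and liver were described beside these values. Of 13 platelet miRNAs, miR-191a-5p included, 11 were counted and 9 tested, edgeR called 0 (against 1.23% of all tested), with 1 higher and 1 lower at an unadjusted p under 0.05, and 5 had a log2FC above and 4 below 0, with a median of 0.07. The smallest p in this list was that of miR-151-3p (edgeR adjusted p = 0.178), the 1 member that DESeq2 called, which had 790 and 624 reads in PAB libraries 2 and 6 and at most 1 elsewhere. The other 10 counted platelet miRNAs together made up 18.3% to 23.0% of the reads other than miR-191a-5p in sham rats and 6.38% to 22.4% in PAB rats. Most of this sum came from miR-24-3p, miR-26a-5p and miR-150-5p. miR-24-3p, which is widely expressed, made up 19.05% in sham library 1. The lymphocyte miRNA miR-150-5p, also in the white blood cell list, made up 9.69% in sham library 3. The sum therefore cannot be read as the part of platelets. miR-223-3p, an abundant platelet and neutrophil miRNA, had 683 reads in PAB library 5 and 0 or 1 in the other 8 libraries.
Red blood cell miRNAs (7 of 9 counted and tested) made up 2.46% to 6.51% and 4.47% to 15.2% of those reads, white blood cell miRNAs (6 of 9) 1.77% to 13.7% and 1.01% to 11.5%, and liver miRNAs (3 of 3) 0.994% to 8.87% and 0% to 7.25%. edgeR called 0 members of each, with median log2FC of 0.13, 1.07 and 0.00, and 1 higher and 3 lower, 1 lower, and 1 lower at an unadjusted p under 0.05. DESeq2 called miR-486 of the red blood cell list higher, miR-181b-5p of the white blood cell list lower and 0 of the liver list. miR-122-5p, the main liver miRNA, was at 0 reads in PAB libraries 4 and 5. The haemolysis gauge averaged −5.36 ± 3.40 (SD, n = 3) in sham rats and −2.50 ± 2.83 (SD, n = 6) in PAB rats (exact permutation p = 0.321). The 6 candidate miRNAs of the study (miR-486, miR-30d-5p and the 5p arms of let-7b, let-7c, let-7d and let-7g) were chosen on these samples, so their calls are not independent evidence. For miR-486 the paper also reports a rise by RT-qPCR in rat serum, and higher serum levels in patients with pulmonary hypertension than in controls. DESeq2, the tool the study used, called all 6 higher, beside 5.56% of all tested, while edgeR and limma-voom called 0, with 3 of the 6 higher at an unadjusted p under 0.05 in each. Their median log2FC from edgeR was 3.51. The part of these cells in the level of miR-191a-5p was not tested.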

How the data were processed

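The authors extracted serum RNA with a serum miRNA kit, ligated adaptors to both ends, amplified by PCR and read single ends of 50 bases. Clean reads were aligned to Rnor_6.0 with Bowtie and compared with miRBase (with Bowtie2) and Rfam, and differences were tested with DESeq2, per the paper's methods. The submitters' notes on processing name Bowtie2 2.2.9 and DESeq2 too, but a human build, GRCh38.p13. The rule for counting reads, and how 58 of the 276 miRNAs were predicted, are not given in the sources used here. The deposited table holds read counts, not normalized, and RPM values, which the authors made by dividing by a library total that is far above the miRNA reads (12630000 to 19250000 reads implied, of which miRNAs were 0.101% to 0.517%). miRNA reads were 19477 to 65313 per library.

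For the counts, edgeR 4.0.16 was run in R 4.3.3 (TMM, quasi-likelihood test, Benjamini-Hochberg) on the 162 miRNAs with a read in 3 or more libraries, and miRNAs were called at an adjusted p ≤ 0.05 and |log2FC| ≥ 1. Log2FC is PAB against sham, and its standard error is its size divided by the square root of F. log2 CPM used a prior count of 2, log2 RPM a pseudocount of 0.1, and log2 ratios 0.5 reads. Groups were compared by exact permutation (two-sided, 84 splits), and correlations by exact permutation of all pairings. The labels name each library as a rat, and p-values measure the spread between these libraries. Alternatives were DESeq2 1.42.0, voom of limma 3.58.1, other normalizations, filters and scales, the library number as a block, and leaving out each library; the 6 libraries numbered 1 to 3 without the block, and leaving out each library for the ratios of mean shares and the part of miR-191a-5p in the RPM difference, were added after the data were seen. Floors are 3 counts. The procedure was tested on simulated data. Other steps ran in Python 3.11.15 (scipy 1.17.1, numpy 2.4.6, matplotlib 3.10.9, pandas 2.3.3). Sequences are from RefSeq (GRCr8).

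The miRNA and the lists were chosen with earlier results of these data known. Named beside miR-191a-5p are its precursor and cluster partners, the 10 miRNAs with the highest mean share, those above it or next below it in a library, the 5 highest and 5 lowest r, the miRNAs called, the candidates kept by the study, and list members by smallest p, of which only some are printed.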

Additional observations from a re-analysis of the deposited data

Results flagged for a closer look

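Of 12 measures of the 6 PAB libraries, 4 had a library far from the other 5 by Dixon's test, which chance gives in about 1 of 20 such groups. The ratio of miR-191a-5p to the next miRNA was 4.86 in PAB library 2, against 0.612 to 1.77 in the other 5. miR-191a-3p had 2029 reads in the same library, against 0 to 673, and miR-425-3p had 266 reads there, against 0 in the other 5. miR-451-5p over miR-23a-3p, on a log2 scale, was −8.16 in PAB library 5, against −2.11 to −0.49 in the other 5. Of these 4 values, 3 are from PAB library 2. In PAB library 5, miR-451-5p had 3 reads, and the other red blood cell miRNAs did not move together there. miR-486 and miR-16-5p had 823 and 1541 reads in that library, miR-92a-3p had 128, and miR-15b-5p, miR-185-5p and miR-25-3p had 1, 1 and 0.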

How the results depend on the processing

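The mean share of miR-191a-5p was within 1 SD of its value, and its PAB to sham difference in share stayed below 0 and missed the threshold, under every alternative tried (leaving out 1 library, 16.4% to 21.0% for the mean, and −19.9 to −6.19 points with exact permutation p from 0.0536 to 0.357 for the difference). It ranked first in 6 libraries also among miRBase miRNAs alone, and 0 correlations passed adjustment under any alternative, with 1 library left out included (0 to 0). On log2 RPM the difference was −2.13 to −1.48 with 1 library left out, and it passed without PAB library 2 (−2.13, exact p = 0.0357), as it did on linear RPM (−701.3 RPM, exact p = 0.0357). The edgeR log2FC was −1.24 to 0.77 with 1 library left out, and it changed sign in 1 of its alternatives, without sham library 3 (0.77); no alternative called it.
The number of miRNAs called, 2 (0 higher, 2 lower), moved in most: 13 with DESeq2 (9 higher, 4 lower), 6 with library totals, 23 with the totals implied by RPM, 4 and 5 without miR-191a-5p in the totals (with TMM and with no factor), 11 without the filter, 5 with miRBase miRNAs alone, and 0 with limma-voom, RLE factors, a filter of 10 reads in 3 libraries, or miR-191a-5p as divisor (8, 8, 0 and 7 higher and 2, 17, 5 and 15 lower at an unadjusted p under 0.05). With 1 library left out it was 0 to 2, and 0 without any 1 library other than sham library 3. Without sham library 3 the 2 called were miR-18a-5p and miR-30e-3p, and neither miR-31a-5p nor miR-181a-1-3p was called. The block for the library number gave 0 calls and a log2FC of −0.94 for miR-191a-5p, and the same 6 libraries without the block 0 and −1.03 (edgeR; 1 and 2 higher, 15 and 25 lower at an unadjusted p under 0.05). The labels do not say that the numbers pair rats. The deviations of same-numbered libraries correlated at −0.15, −0.35 and 0.03, beside −0.16 to 0.21 for libraries of different numbers. So few pairs cannot show whether libraries of the same number share a batch. The causes of these changes were not tested.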
